A study of Sus scrofa with 12 samples.

Results

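The respiratory chain and ATP synthase were represented on the array by 66 genes with 74 probe sets, out of 12362 named genes and 27558 probe sets in all. A gene was taken when its listed symbol began with NDUF, SDHA, SDHB, SDHC, SDHD, UQCR, COX with a number, or ATP5, and its brightest probe set stood for it. They were 31 subunits of complex I, 1 of complex II, 2 of complex III, 8 of complex IV, 11 of complex V and 13 assembly factors or paralogs. No measured difference entered that choice. RNA came from the left ventricle of female pigs, 13 months old, in a study that enrolled 12 animals, 6 per treatment. Paced pigs (EXP) had atrioventricular block made with an ablation catheter and a pacemaker set to VDD, a mode that senses the atrium and paces the ventricle. Control pigs (CTL) were a sham group, and tissue was taken after 6 months. The labels place a ventricular lead over the right ventricular septum and an atrial lead over the right atrial appendage in all pigs, so controls carried leads too. Control and paced pigs each gave free wall and septal tissue, which makes 4 groups with 3 arrays each. The labels call the tissues paired but do not tie an array to an animal, so p-values reflect spread among arrays, which may be technical, and not a known number of animals.

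Complex I takes electrons from NADH and complex II from succinate, and both pass them to ubiquinone. Complex III hands them on to cytochrome c, and complex IV hands them to oxygen, while complexes I, III and IV pump protons across the inner mitochondrial membrane. Complex V, the ATP synthase, uses the return flow of protons to make ATP, and heart muscle draws most of its ATP from this route. Most subunits are encoded in the nucleus, while the catalytic cores of complexes I, III and IV include subunits encoded by mitochondrial DNA.

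Values are RMA signals on the log2 scale, where a difference of 1 is a doubling. RMA removes background, gives every array the same distribution and joins the probes of a set into 1 value. Array medians lay between 4.31 and 4.45. Free wall paced array 2 stood apart over all probe sets, with a first principal component score of -45.3 while scores elsewhere ran from -19.2 to 22.3. With 3 arrays per group many small differences rested on 1 array: of 80 named differences of chain genes, none past the threshold, 46 moved by over 1.5 times or turned when some array was left out. Some of the larger such moves are given beside the values, and a value given alone may also rest on 1 array. Of 12 cardiomyocyte markers 8 were listed, and their mean signal lay between 11.56 and 11.76 on every array, so the labelled heart muscle was bright for its own markers. Since these are bulk samples, fewer cells of a type and less RNA per cell cannot be told apart.

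The probe sets of chain genes were bright. Mean signals of the 66 ran from 3.24 for SDHAF1, an assembly factor of complex II, to 12.97 for COX1, the mitochondrially encoded catalytic subunit of complex IV, with a median of 8.51. Of the 66, 62 lay above the 75th percentile of all probe sets (5.86) and 48 above the 90th percentile (7.42). Probes bind with different strength, so these levels describe the probe sets and do not order the transcripts by amount. COX1 lay close to the highest value of the whole table, 13.14, where an array has little room to show a rise.

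In complex I the mean signal ran from 4.58 for NDUFA6, an accessory subunit that holds the mitochondrial acyl carrier protein, to 10.83 for NDUFB6 of the membrane arm, with a median of 8.53. SDHD, a membrane anchor of complex II, lay at 9.28. In complex III the small subunit UQCR10 lay at 8.90 and UQCRB, a subunit at the ubiquinone site, at 11.03. Complex IV ran from 7.04 for COX6A1, the widely expressed isoform of subunit VIa, to COX1. Complex V ran from 8.43 for ATP5O, part of the peripheral stalk, to 11.44 for ATP5B, the catalytic beta subunit. Among the factors the signal ran from SDHAF1 to COX17, a copper chaperone of complex IV, at 8.43, with a median of 6.85. No probe set used here was listed under SDHA, SDHB or SDHC, or under the heart isoforms COX6A2 and COX7A1, so nothing is said of them. The plot of signals by gene and complex shows every array.

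**Figure D1:**
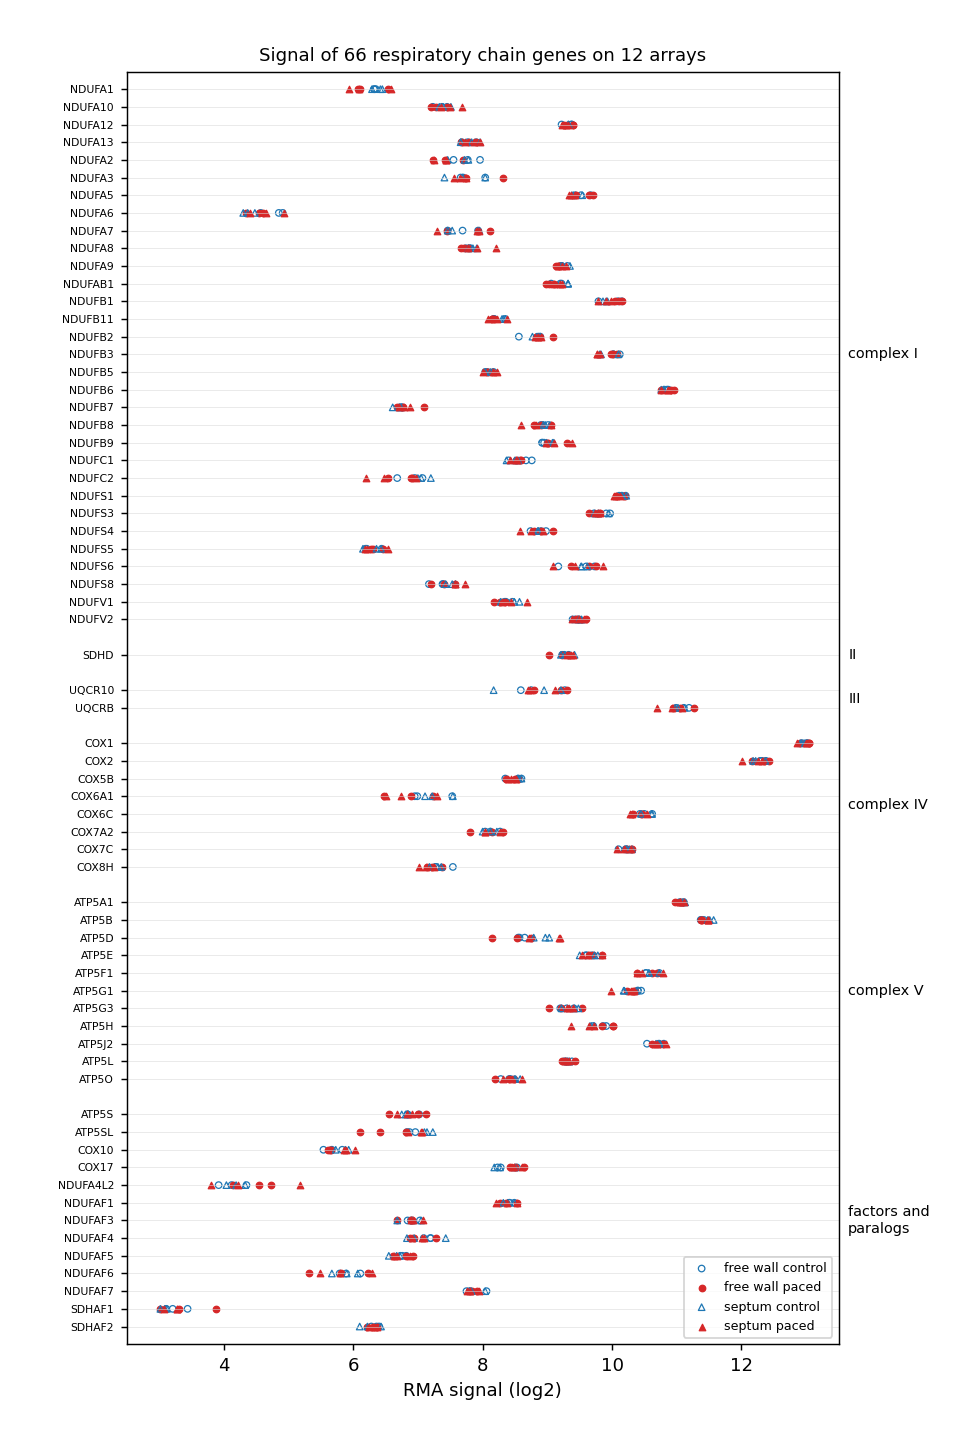
RMA log2 signal (horizontal axis) of the 66 genes (rows, by complex) on each of 12 arrays, with circles for free wall, triangles for septum, open blue marks for control and filled red marks for paced arrays. The 12 marks of most genes lie close together, while gene means run from 3.24 to 12.97.

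Most members varied little between arrays of a group. The median within-group SD of the 66 was 0.122, against 0.205 over all 20669 probe sets tested. Among members with a mean of 8 or more (41 genes) it was 0.110, against 0.131 over the 1820 probe sets that bright. The steadiest member was ATP5B, with an SD of 0.027. The most variable were NDUFA4L2 (0.406), a paralog of NDUFA4 known to be induced by low oxygen, UQCR10 (0.369) and COX6A1 (0.341).

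As a whole the chain genes did not separate the groups. The mean deviation of the 66 from their own averages was -0.057, 0.001 and 0.082 on the free wall control arrays, while paced free wall arrays had 0.041, 0.007 and -0.070. The septal controls had values of 0.007, -0.022 and 0.057, and the paced septal arrays 0.000, 0.062 and -0.109. Each group spans 0 and all 4 groups overlap. The paced septal arrays alone covered most of the range over all arrays. Septum paced array 3 was the lowest, with 12 of 66 members above their own mean, and free wall control array 3 the highest, with 50. Free wall paced array 2 lay in the middle of this range. Complex IV ran from -0.205 in septum paced array 3 to 0.160 in free wall control array 3. The plot of deviations by array shows the groups beside each other for the larger complexes.

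**Figure D2:**
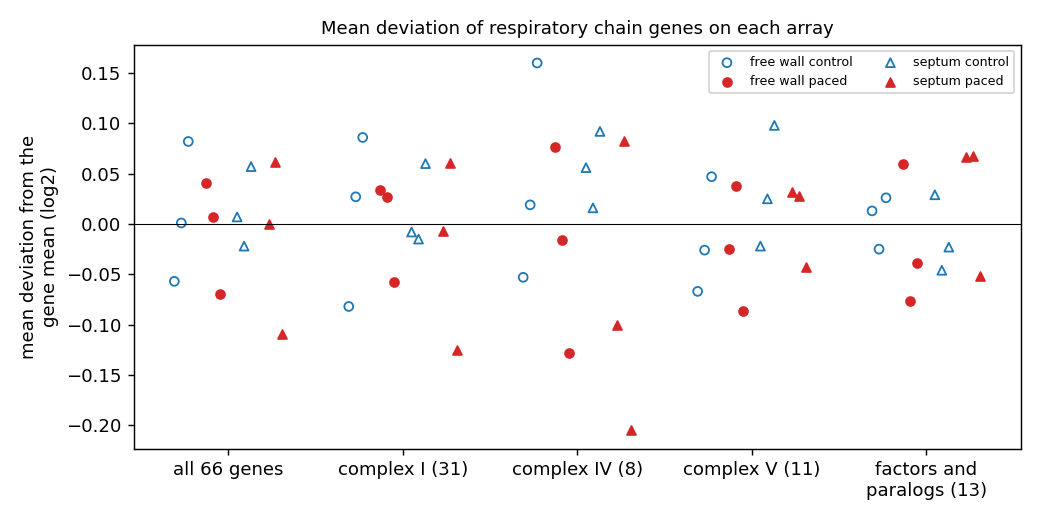
Mean deviation (log2, vertical axis) of all 66 genes and of complexes I, IV and V and the factors from each gene's own 12-array average, with 1 mark per array and colours and shapes for treatment and region. Septum paced array 3 lies lowest for all members, at -0.109, and the groups overlap.

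The first comparison asked how chain genes differed between paced and control pigs in the free wall, the region away from the lead. No member passed an adjusted p of 0.05, and the smallest adjusted p among them was 0.998 (limma with Benjamini-Hochberg adjustment over all probe sets, n = 3 arrays per group). Of all probe sets tested, 0.00484% were called. At an unadjusted p under 0.05 there was 1 member of 66, lower in paced pigs, against 4.56% of all probe sets in either direction and 2.59% on the lower side. The median log2 difference, paced minus control, was -0.018, against 0.000 over all probe sets, and 26 members lay above 0 (39.4%, against 49.9%). By complex the medians were 0.003 for complex I, -0.045 for IV, -0.017 for V and -0.047 for the factors. The 95% interval lay within 1.5-fold in either direction for 58 of the 66 (87.9%), against 68.1% of all probe sets. It lay within 2-fold for all 66. Among bright probe sets (mean of 8 or more), which varied less between arrays, the share within 1.5-fold was 85.1%. Only 5 members had control and paced arrays that did not overlap, 7.58% of them, against 8.16% of all probe sets.

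Among the assembly factors, ATP5SL, which despite its name is known as a complex I assembly factor and is now called DMAC2, stood lowest in the paced free wall. Its control arrays read 6.87, 6.83 and 6.96, and its paced arrays 6.81, 6.11 and 6.42. The groups did not overlap, but paced array 1 lay just below the lowest control. The log2 difference was -0.44 (SE 0.16, limma adjusted p = 0.998), and -0.27 without free wall paced array 2. COX17 differed by 0.18 (SE 0.13). NDUFA4L2 differed by 0.34 with an SE of 0.29, and its paced readings of 4.14, 4.54 and 4.73 overlapped controls at 3.92, 4.12 and 4.35. Without paced array 3 it was 0.21.

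In complex I, NDUFA2, an accessory subunit of the arm that protrudes into the matrix, had control readings of 7.55, 7.77 and 7.96, while paced arrays read 7.69, 7.24 and 7.42. Paced array 1 lay among the controls, and the difference was -0.31 (SE 0.15), or -0.20 without paced array 2. NDUFA6 differed by -0.28 (SE 0.15), while its other probe set gave 0.04, and the acyl carrier protein NDUFAB1 by -0.12 (SE 0.10). NDUFB9 and NDUFB2, both of the membrane arm, differed by 0.17 (SE 0.13) and 0.16 (SE 0.12), the latter 0.05 without free wall control array 1. NDUFB9 control arrays read 8.95, 8.92 and 8.92 and paced arrays 9.30, 9.0 and 9.01, and without paced array 1 its difference was 0.08.

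The other complexes gave smaller values or wider errors. SDHD differed by -0.09 (SE 0.11). UQCR10 differed by 0.23 with an SE of 0.26, since its control arrays alone ran from 8.59 to 9.27, and by 0.09 without control array 2. COX6A1 differed by -0.28 (SE 0.25), or -0.09 without paced array 3, and the peripheral stalk subunit ATP5H by 0.13 (SE 0.12). The brightest probe sets of core subunits were close to 0. COX1 differed by 0.01 (SE 0.10), COX2 by -0.02 (SE 0.12), ATP5A1 by -0.03 (SE 0.09) and ATP5B by -0.01 (SE 0.09). The other probe set of COX2, with a mean of 11.3, gave 0.15. COX2 is the mitochondrially encoded subunit that receives electrons from cytochrome c, and ATP5A1 is the alpha subunit beside ATP5B. For ATP5B the 95% interval ran from -0.20 to 0.18.

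In the septum, the region nearer the lead, again no member passed (smallest adjusted p 0.992, limma, n = 3 per group), where 0.00968% of all probe sets were called. At an unadjusted p under 0.05 there was 1 member, lower, against 4.66% of probe sets in either direction and 2.33% on the lower side. The median difference was -0.028, against -0.003 over all probe sets, and 26 members lay above 0 (39.4%, against 49.1%). Complex IV had the lowest median of the larger complexes, -0.102, with 6 of its 8 members below 0. The 95% interval was within 1.5-fold for 60 members (90.9%), against 67.2% of all probe sets and 86.3% of bright ones. Groups did not overlap for 6 members, 9.09% of them, against 10.5% of probe sets and 12.8% of bright ones in either direction. All 6 were lower in paced arrays, and on that side alone 989 of 20669 probe sets and 100 of 1820 bright ones did not overlap.

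NDUFC2, a membrane-arm subunit of complex I, had the largest septal difference. Control arrays of the septum read 7.20, 7.05 and 7.0, and paced arrays 6.48, 6.97 and 6.19. Paced array 2 lay just below the lowest control and the other paced arrays well below it. The log2 difference was -0.54 (SE 0.19, limma adjusted p = 0.992), and -0.36 without septum paced array 3, the array on which chain genes as a whole were lowest. In the free wall NDUFC2 had overlapping groups, its control arrays reading 6.68, 6.95 and 7.07 and its paced arrays 6.90, 6.91 and 6.53.

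NDUFA2 control readings in the septum were 7.78, 7.46 and 7.72, while paced arrays read 7.43, 7.43 and 7.25, a difference of -0.28 (SE 0.15) with groups that only just did not overlap. NDUFA6 differed by 0.28 (SE 0.15), or 0.15 without septum paced array 2, and its other probe set gave -0.12. NDUFA8 and NDUFS8 differed by 0.12 each (SE 0.12), and NDUFA8 by -0.01 without septum paced array 2. NDUFS8 carries iron-sulfur clusters on the path of electrons to ubiquinone. NDUFS1, the largest iron-sulfur subunit, differed by -0.10 (SE 0.09), with controls at 10.16, 10.15 and 10.22 and paced arrays at 10.06, 10.13 and 10.03.

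COX6A1 differed by -0.45 (SE 0.25) in the septum. Its controls read 7.22, 7.11 and 7.54 and its paced arrays 6.74, 7.29 and 6.50, so the groups overlapped through paced array 2. Without paced array 3 the difference was -0.28. COX6C, a small nuclear-encoded subunit of complex IV, differed by -0.19 (SE 0.11) and UQCRB by -0.14 (SE 0.13). COX8H, the heart form of subunit VIII, differed by -0.15 (SE 0.12), and in the free wall by -0.12 (SE 0.12). COX7A2, the isoform of subunit VIIa found in most tissues, differed by 0.00 (SE 0.14) in the septum. SDHD differed by 0.06 (SE 0.11), ATP5H by -0.11 (SE 0.12) and COX17 by 0.20 (SE 0.13). Without paced array 3, ATP5H was at 0.00 and UQCRB at -0.04. The plot of pacing differences sets both regions side by side.

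**Figure D3:**
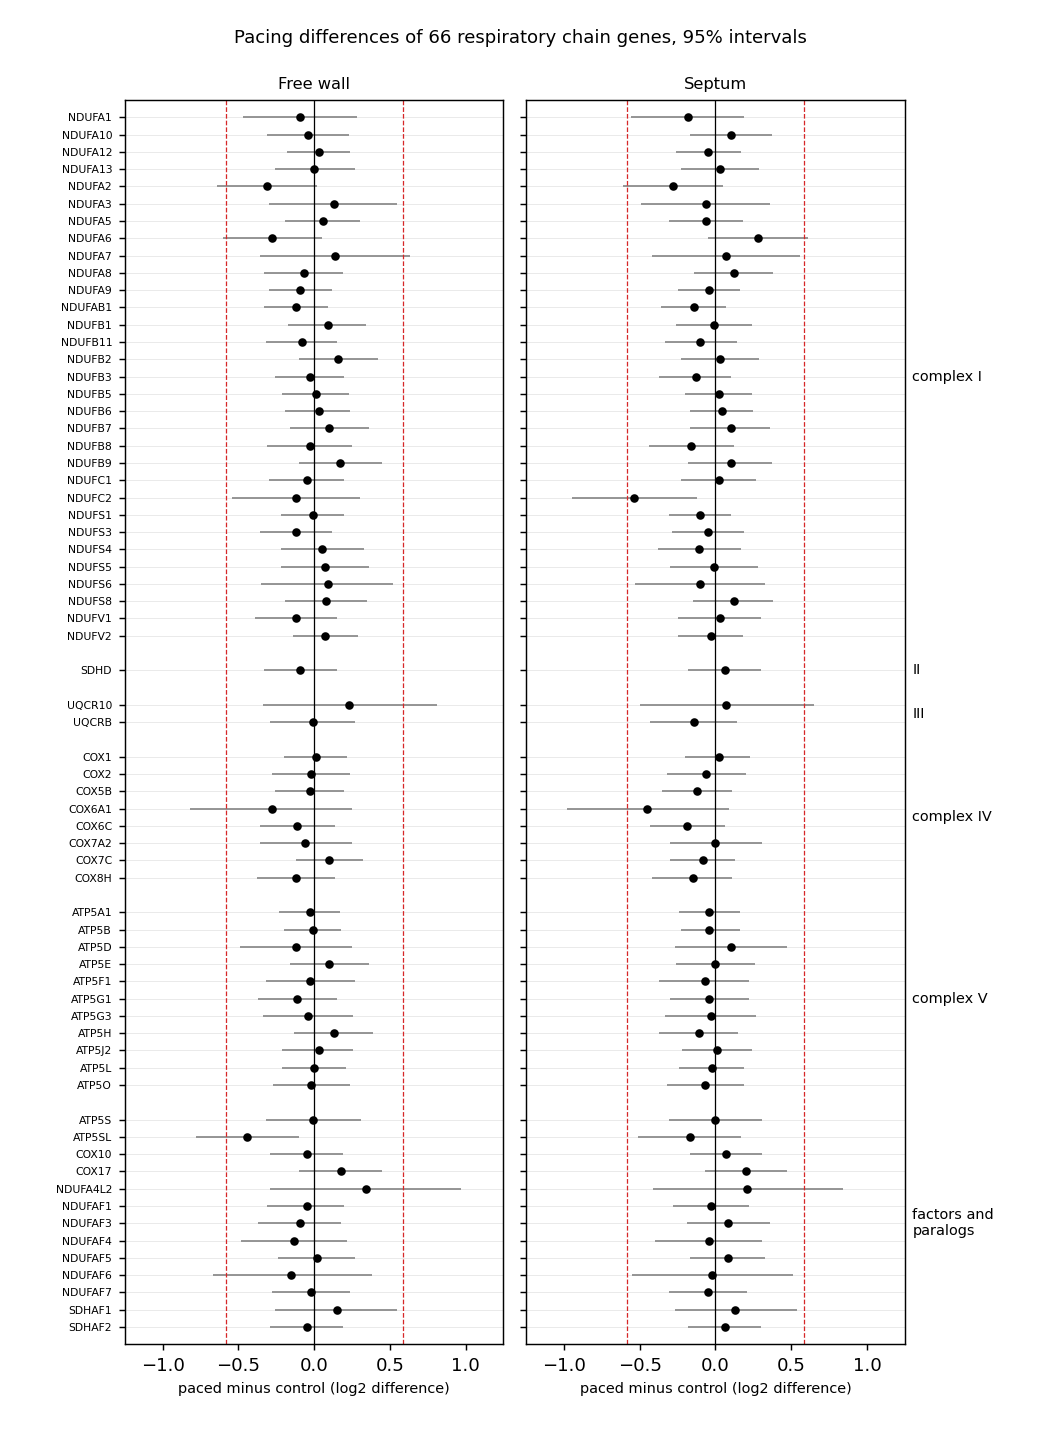
Log2 differences, paced minus control, with 95% limma intervals for the 66 genes in the free wall (left) and the septum (right), grouped by complex. Red dashed lines mark a 1.5-fold difference, and intervals lie within them for 58 members in the free wall and 60 in the septum.

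The free wall and septal array of a treatment that carry the same number were then averaged (3 control and 3 paced values). The intervals narrowed to a median of 0.22 on either side. They lay within 1.5-fold for 62 of 66 members (93.9%), against 87.7% of probe sets and 92.4% of bright ones. Same-numbered paced arrays did not deviate together, so whether the numbers pair them is not known. The errors and p-values of this comparison depend on that pairing. No member passed (smallest adjusted p 0.867, limma), where 0.00484% of probe sets were called. At an unadjusted p under 0.05 there were 2 members, or 3.03% against 5.55% of probe sets, and both lay on the lower side, where 2.96% of probe sets did. The median was -0.012, and 27 members lay above 0 (40.9%, against 48.9%). The 2 members at that unadjusted p were NDUFA2, at -0.30 (SE 0.11, limma adjusted p = 0.867), and ATP5SL, at -0.30 (SE 0.11). Without free wall paced array 2, ATP5SL was at -0.14. The averaged control values for NDUFA2 were 7.67, 7.62 and 7.84, above the paced values of 7.56, 7.34 and 7.34. NDUFAB1, at -0.13, was the other member without overlap among the 3, which are 4.55% of members against 10.5% of probe sets in either direction. All 3 were lower, and on that side alone 1142 of 20669 probe sets did not overlap.

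NDUFC2 differed by -0.33 (SE 0.14), COX6A1 by -0.36 (SE 0.19), NDUFA4L2 by 0.28 (SE 0.15), COX17 by 0.19 (SE 0.11) and NDUFB9 by 0.14 (SE 0.09). Leaving out 1 array took NDUFA4L2 to 0.10 (septum paced array 1) and NDUFB9 to 0.07 (septum paced array 2). SDHAF1 differed by 0.14 (SE 0.11), and by 0.00 without free wall paced array 2, where it read 3.88 against 3.44 or less elsewhere. UQCRB and ATP5G1, a gene for the proton-carrying c-ring, both differed by -0.08 (SE 0.09). SDHD differed by -0.02 (SE 0.09). The 4 members whose interval went beyond 1.5-fold were NDUFC2, UQCR10, COX6A1 and NDUFA4L2, all of which varied more between arrays than the median member.

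The pacing difference itself was compared between regions, as septum minus free wall. No member passed (smallest adjusted p 0.999, limma), nor did any probe set (0.0% called), and 1 member was at an unadjusted p under 0.05, against 2.75% of probe sets in either direction and 1.43% on the higher side. The median was -0.020 with 28 members above 0 (42.4%, against 51.3%). The interval lay within 1.5-fold for 51 members (77.3%), against 35.8% of probe sets and 71.6% of bright ones. The member at that p was NDUFA6, at 0.56 (SE 0.21, limma adjusted p = 0.999). It read 4.91, 4.85 and 4.57 in free wall control, 4.55, 4.61 and 4.34 in free wall paced, 4.30, 4.37 and 4.48 in septum control and 4.65, 4.93 and 4.41 in septum paced arrays. Its other probe set gave -0.16 for the same quantity, so its probe sets disagreed in direction. NDUFC2 differed by -0.42 (SE 0.27), ATP5SL by 0.27 (SE 0.22), ATP5H by -0.24 (SE 0.17), COX7C, a small subunit of complex IV, by -0.18 (SE 0.14) and the assembly factor NDUFAF3 by 0.18 (SE 0.18). NDUFA8 and NDUFS4, accessory subunits of complex I, differed by 0.18 (SE 0.17) and -0.16 (SE 0.18), SDHD by 0.14 (SE 0.16) and UQCRB by -0.13 (SE 0.18). Several of these rested on 1 array. Without free wall paced array 2, ATP5SL was at 0.10. Without septum paced array 3, NDUFC2 was at -0.24, ATP5H at -0.14, NDUFS4 at -0.07 and UQCRB at -0.03. NDUFA8 was at 0.06 without septum paced array 2, and NDUFAF3 at 0.08 without septum control array 1.

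The design of the series also asks how septum and free wall differ. The next values are septum minus free wall, and they share arrays with the pacing differences. In control pigs no member passed (smallest adjusted p 0.997, limma, n = 3 per group), nor did any probe set (0.0% called), and 1 member was at an unadjusted p under 0.05, lower in the septum, against 3.67% of probe sets in either direction and 1.55% on the lower side. The median was 0.020, against 0.013 over all probe sets. Above 0 lay 37 members (56.1%, against 52.3% of probe sets and 45.2% of bright ones). The interval lay within 1.5-fold for 59 members (89.4%), against 68.0% of probe sets and 88.4% of bright ones. Groups did not overlap for 13 members, 19.7% against 13.1% of probe sets and 13.8% of bright ones. Of these members 9 were higher and 4 lower in the septum. ATP5B, ATP5D, ATP5O, NDUFAB1, NDUFB9, NDUFS8, NDUFV2, COX7C and ATP5SL were on the higher side, and NDUFA6, NDUFB6, ATP5G1 and NDUFAF5 on the lower. Complex V held 4 of the 13, and 9 of its 11 members lay above 0.

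The sizes in control pigs were small. ATP5D, the delta subunit in the rotating stalk of the ATP synthase, differed by 0.34 (SE 0.17) and ATP5SL by 0.27 (SE 0.16). NDUFS8 differed by 0.20 (SE 0.12), NDUFAB1 by 0.16 (SE 0.10) and COX7C by 0.09 (SE 0.10). NDUFA6 differed by -0.39 (SE 0.15, limma adjusted p = 0.997), while its other probe set gave 0.25. ATP5G1 differed by -0.17 (SE 0.12), NDUFB3 by -0.14 (SE 0.11), NDUFC1 by -0.14 (SE 0.11), UQCRB by -0.06 (SE 0.13) and SDHD by 0.03 (SE 0.11). NDUFC1 was at -0.06 without free wall control array 3.

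In paced pigs no member passed (smallest adjusted p 0.511, limma), nor did any probe set (0.0% called), and 5 members were at an unadjusted p under 0.05, 7.58% against 6.73% of probe sets. Of these 3 were higher and 2 lower in the septum, where 4.3% and 2.43% of probe sets were. Among bright probe sets 8.46% were at that p in either direction. The median was -0.028, against 0.007, with 25 members above 0 (37.9%, against 51.4% of probe sets and 46.7% of bright ones). The interval lay within 1.5-fold for 56 members (84.8%), against 65.9% of probe sets and 81.6% of bright ones. Groups did not overlap for 8 members, 12.1% against 9.91% of probe sets and 16.3% of bright ones. The complex I members NDUFA5, NDUFB1 and NDUFB3 lay lower in the septum, by -0.22 (SE 0.11), -0.21 (SE 0.12) and -0.24 (SE 0.11). NDUFA8 lay higher, by 0.25 (SE 0.12), with its septal arrays at 7.91, 8.21 and 7.77, but a free wall array at 7.78 overlapped them and the difference was 0.12 without septum paced array 2. COX2 differed by -0.12 (SE 0.12), UQCRB by -0.19 (SE 0.13) and SDHD by 0.17 (SE 0.11). Without septum paced array 3, COX2 was at -0.02 and UQCRB at -0.09, and SDHD was at 0.09 without free wall paced array 3.

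Over both treatments (6 arrays per region) no member passed either, with a smallest adjusted p of 0.372 (limma), where 0.00968% of probe sets were called. At an unadjusted p under 0.05 there were 6 members, 9.09% against 7.83% of probe sets and 11.8% of bright ones. Of the 6 members 4 were higher and 2 lower in the septum, where 4.79% and 3.04% of probe sets were. The median was -0.006, and 30 members lay above 0 (45.5%, against 53.3% of probe sets and 45.9% of bright ones). The 95% interval lay within 1.5-fold for 64 of 66 members (97.0%), against 87.8% of probe sets and 93.9% of bright ones. ATP5D and ATP5SL were the members outside it. ATP5B was the single member without overlap between all 6 free wall and all 6 septal arrays. That is 1.52% of members, against 0.668% of probe sets and 1.65% of bright ones in either direction.

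ATP5D had the largest difference between regions. It read 8.65, 8.55 and 8.57 in free wall control, 8.14, 8.74 and 8.53 in free wall paced, 8.79, 8.97 and 9.03 in septum control and 9.18, 8.71 and 9.19 in septum paced arrays. All septal arrays but paced array 2 lay above all free wall arrays. The mean was 8.53 ± 0.21 (SD, n = 6) in the free wall and 8.98 ± 0.20 (SD, n = 6) in the septum. The log2 difference was 0.45 (SE 0.12), a 1.36-fold higher septal signal, with a limma adjusted p of 0.372. Within paced pigs it was 0.56 (SE 0.17, limma adjusted p = 0.562).

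ATP5B showed a small and even difference. It read 11.37, 11.38 and 11.42 in free wall control, 11.39, 11.37 and 11.38 in free wall paced, 11.48, 11.51 and 11.57 in septum control and 11.49, 11.48 and 11.48 in septum paced arrays. Every septal array lay above every free wall array. The log2 difference was 0.12 (SE 0.06, limma adjusted p = 0.697). The moderated SE was larger than the spread of these arrays because limma draws each variance toward that of all probe sets. With moderation that follows the signal level the SE was 0.03 and the adjusted p 0.34.

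ATP5H went the other way. It read 9.71, 9.86 and 9.91 in free wall control, 10.02, 9.84 and 10.02 in free wall paced, 9.72, 9.66 and 9.68 in septum control and 9.65, 9.72 and 9.37 in septum paced arrays. Paced free wall and paced septum did not overlap, while in control pigs free wall array 1 lay among the septal values. The difference over both treatments was -0.26 (SE 0.08, limma adjusted p = 0.471), and within paced pigs -0.38 (SE 0.12, adjusted p = 0.577). ATP5D and ATP5H, subunits of 1 complex, thus had opposite signs between the same regions, neither past the threshold.

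ATP5SL read 7.14, 7.10 and 7.23 in septum control and 7.05, 7.07 and 6.84 in septum paced arrays, beside the free wall values above. All septal arrays but paced array 3 lay above all free wall arrays. It differed by 0.40 (SE 0.11, limma adjusted p = 0.374) over both treatments and by 0.54 (SE 0.16, adjusted p = 0.511) in paced pigs, or 0.37 there without free wall paced array 2. COX10, which makes a precursor of the haem of complex IV, read 5.83, 5.67 and 5.54 in free wall control, 5.61, 5.65 and 5.64 in free wall paced, 5.93, 5.73 and 5.88 in septum control and 6.02, 5.85 and 5.89 in septum paced arrays. Its paced groups did not overlap. It differed by 0.23 (SE 0.08, limma adjusted p = 0.515) over both treatments and by 0.29 (SE 0.11) in paced pigs.

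In complex I, NDUFS8 lay 0.22 higher in the septum over both treatments (SE 0.09, limma adjusted p = 0.572) and NDUFB3 lay lower, by -0.19 (SE 0.08, adjusted p = 0.572). NDUFB3 read 10.02, 10.02 and 10.12 in free wall control, 10.01, 9.98 and 10.08 in free wall paced, 10.10, 9.81 and 9.83 in septum control and 9.76, 9.81 and 9.77 in septum paced arrays. Only septum control array 1 lay among the free wall values. NDUFA5 and NDUFB1 differed by -0.16 each (SE 0.08), UQCRB by -0.12 (SE 0.09), SDHD by 0.10 (SE 0.08) and COX8H by -0.10 (SE 0.08). The regional differences in control and in paced pigs, which come from different arrays, had the same sign for 42 of 66 members (63.6%), against 56.7% of probe sets. Across the 66 genes, which are not independent replicates, they correlated at r = 0.57, against 0.19 across all probe sets. Members also varied less between arrays of a group (median within-group SD 0.122, against 0.205 over all probe sets tested). Neither the share of same signs nor the correlation was computed for bright probe sets. Whether chain genes agreed more than other probe sets of similar spread was therefore not tested. The plot of regional differences and the plot of array values show these members.

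**Figure D4:**
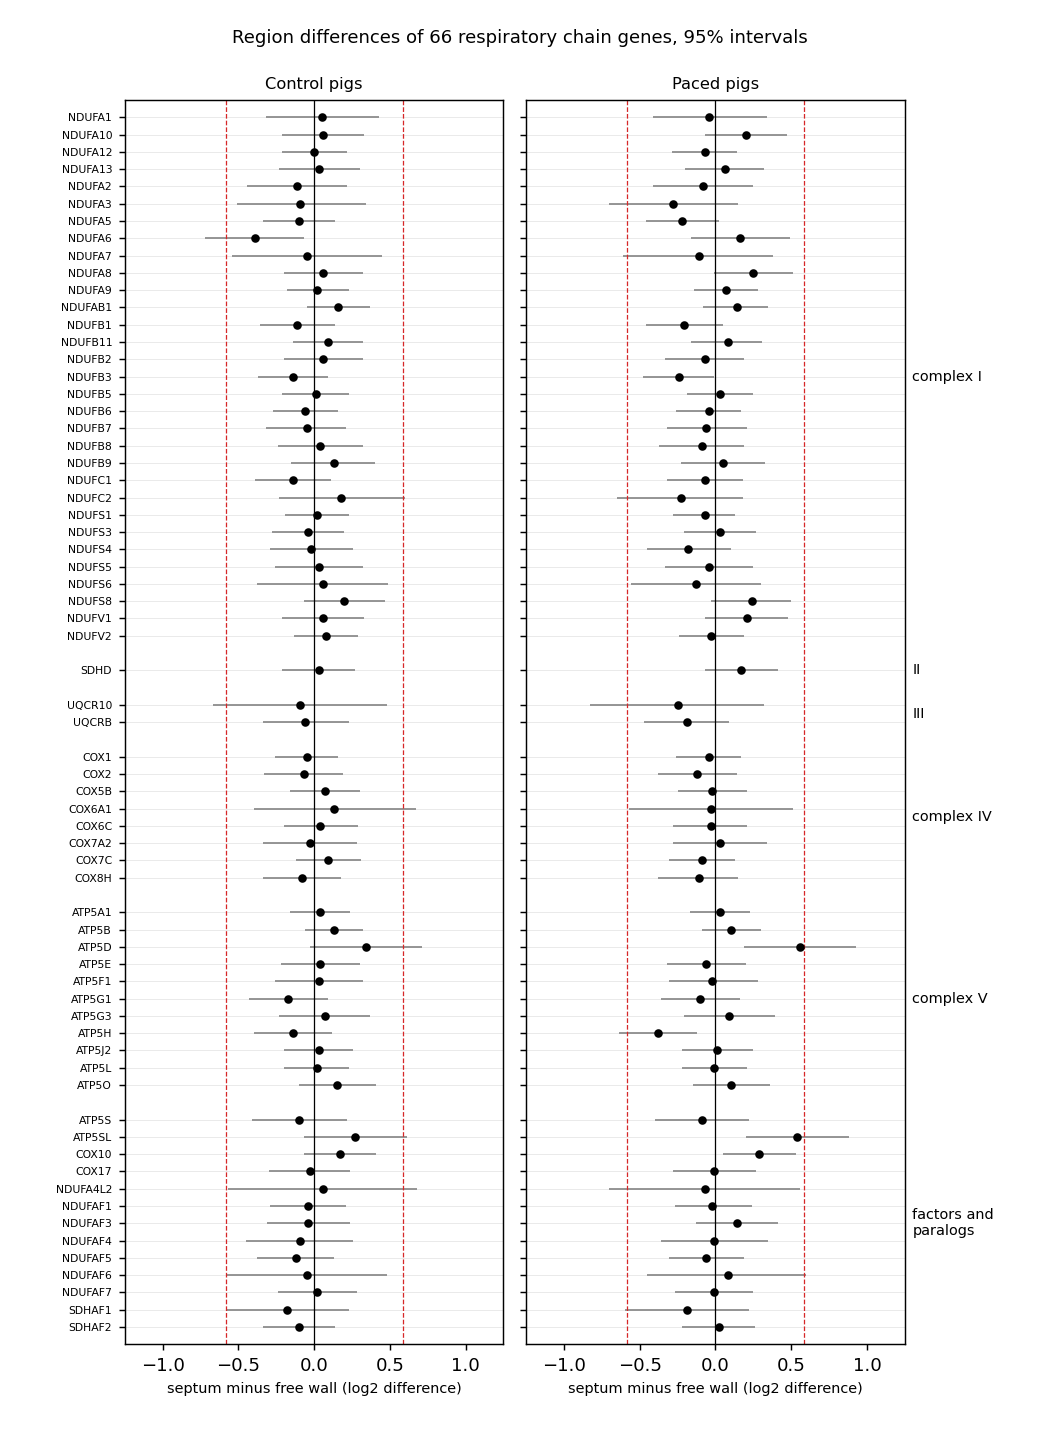
Log2 differences, septum minus free wall, with 95% limma intervals for the 66 genes in control and in paced pigs, grouped by complex. Red dashed lines mark a 1.5-fold difference. ATP5D and ATP5SL lie to the right in both, at 0.34 and 0.27 in control and 0.56 and 0.54 in paced pigs.

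**Figure D5:**
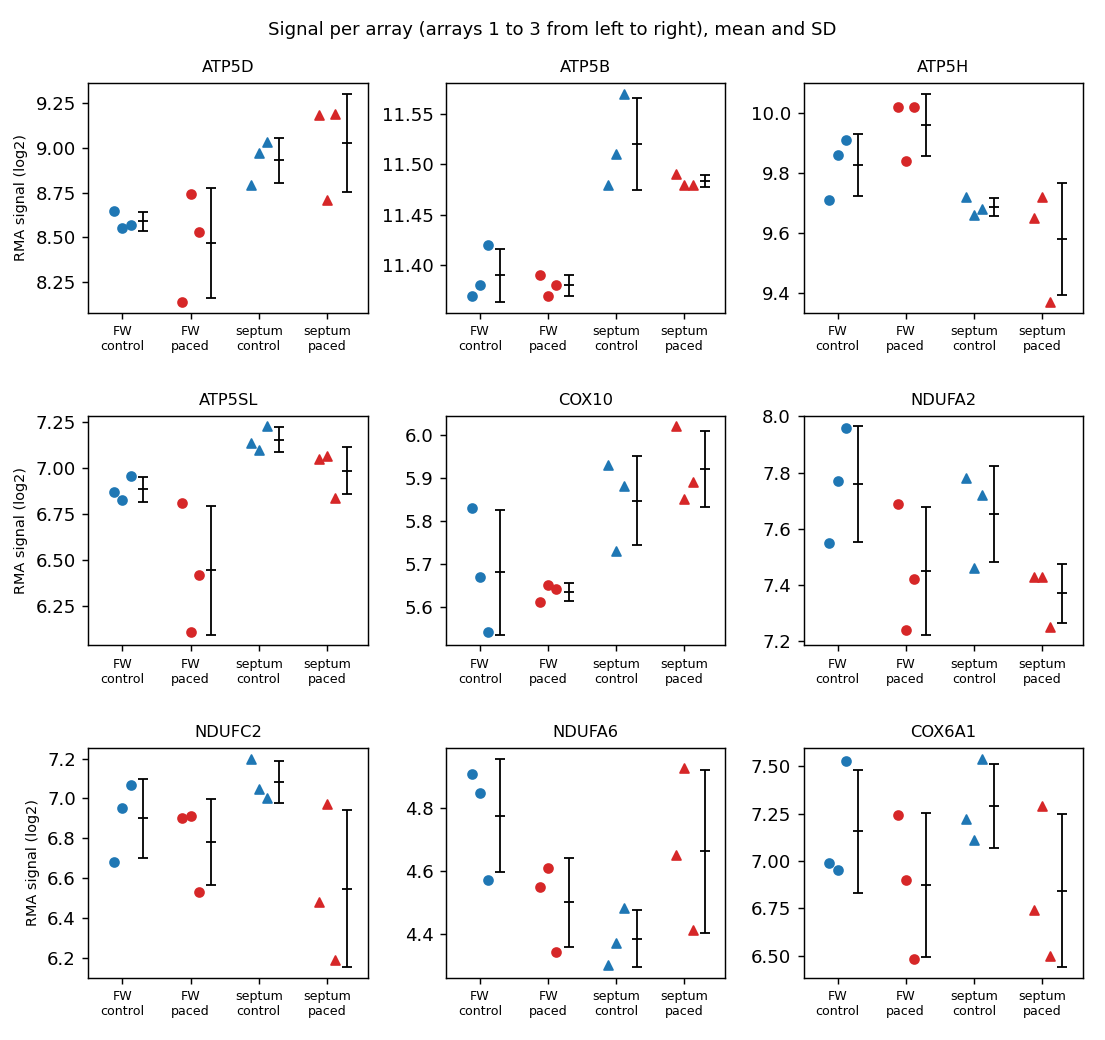
RMA log2 signal on each array for 9 members, with a point for each array, and group means with SD bars, in free wall (FW) and septum of control and paced pigs. ATP5B septal arrays all lie at 11.48 or above and its free wall arrays at 11.42 or below.

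Other genes of mitochondrial energy supply gave the same count of calls, 0 in each list and comparison. For chain genes of the mitochondrial genome, 8 of 13 were listed, COX1 and COX2 among them. All 8 lay below 0 in the septum against the free wall, with medians of -0.075 in control and -0.118 in paced pigs. Medians were 0.013 and 0.007 over all probe sets and -0.012 and -0.013 over those with a mean of 8 or more. Apart from ND6, the genes are cut from shared transcripts, so these are not 8 independent readings. Their mean signal lay between 11.36 and 11.41 in free wall control and between 11.20 and 11.35 in septum control arrays, which did not overlap, and between 11.23 and 11.50 and between 11.01 and 11.36 in paced arrays, which did. ND6, a complex I subunit encoded on the other strand from the rest, had the smallest p. It differed by -0.61 in paced pigs (SE 0.21, limma adjusted p = 0.598), or by -0.84 without free wall paced array 2. The difference was smaller in size without free wall paced array 1 or septum paced array 3. Its paced arrays read 6.35, 5.53 and 6.13 in the free wall and 5.43, 5.66 and 5.10 in the septum, so the groups overlapped. With pacing ND2, another complex I subunit, differed most, by -0.28 (SE 0.21) in the septum, or -0.09 without septum paced array 3.

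Of 51 other assembly factors and chain genes, 22 were listed and 21 tested. With pacing 15 of 21 lay below 0 in the free wall and 14 in the septum, with medians of -0.050 and -0.037. Over all probe sets 49.9% and 49.1% lay above 0. Of the 22 listed, 16 lay below 0 in the free wall, and 12 without free wall paced array 2. Between regions 10 of the 21 tested lay above 0 in control and in paced pigs. Among the tricarboxylic acid cycle and pyruvate dehydrogenase genes (19 of 26 tested), SUCLA2, a subunit of succinyl-CoA synthetase, differed by 0.32 (SE 0.11) with pacing in the free wall and 0.27 (SE 0.11) in the septum. Its control arrays lay between 9.89 and 10.14 and its paced arrays between 10.21 and 10.41 over both regions, without overlap. SUCLA2 was named for the smallest p on the higher side of its list. The share of all probe sets separated in this way over both regions was not computed. With regions averaged it differed by 0.30 (SE 0.09, limma adjusted p = 0.867). PDK3, a kinase that restrains pyruvate dehydrogenase, differed by -0.29 (SE 0.13) in the free wall.

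Regulators of mitochondrial biogenesis were tested for 15 of 27 genes. GABPB1, a subunit of the factor known as nuclear respiratory factor 2, differed by 0.31 (SE 0.13) in the free wall and 0.30 (SE 0.13) in the septum with pacing. PPARA, a nuclear receptor that drives fatty acid oxidation genes, differed by -0.53 (SE 0.22) and -0.39 (SE 0.22), and by -0.46 with regions averaged (SE 0.15, limma adjusted p = 0.867). Free wall controls read 8.65, 8.32 and 8.46 and paced arrays 8.18, 7.42 and 8.24, and the lowest of these was array 2, which stood apart. Without it the free wall difference was -0.27, and the septal one was -0.22 without septum control array 1. Among energy carriers (10 of 16 tested), UCP2, an inner membrane carrier, lay 0.37 higher in the septum over both treatments (SE 0.11, limma adjusted p = 0.451), at low signals of 3.14 to 4.15. Import and membrane organisation genes (16 of 28 tested) had medians of -0.027 and -0.043 with pacing. Antioxidant enzymes (8 of 10 tested) all lay above 0 in the septum over both treatments, with a median of 0.080, and the mitochondrial thioredoxin TXN2 at 0.20 (SE 0.09, limma adjusted p = 0.613).

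Markers of other cells were read beside these values. The mean of 5 fibroblast markers lay between 7.78 and 8.87 in free wall control, 8.73 and 8.89 in free wall paced, 7.87 and 8.92 in septum control and 8.64 and 8.74 in septum paced arrays. All 5 lay above 0 with pacing in each region, none called. Control array 1 was the low one in each region, at 7.78 and 7.87, and without it 2 of 5 lay above 0 in each region. The mean of 5 macrophage markers lay between 6.13 and 6.30 in free wall control and 5.61 and 6.11 in free wall paced arrays. These only just did not overlap, and the lowest was free wall paced array 2. All 5 lay below 0 with pacing there, with or without that array. Of single probe sets 8.16% did not overlap in this comparison. In the septum the marker means overlapped. Endothelial markers (4 of 7) lay between 6.60 and 7.28 in all groups, smooth muscle and pericyte markers (5 of 6) between 6.22 and 7.15, lymphocyte markers (5 of 6) between 3.65 and 4.13 and skeletal muscle markers (3 of 6) between 3.89 and 4.33. Adipocyte markers (3 of 5) lay between 2.85 and 3.72. The adipocyte gene LEP, the erythroid genes HBB and ALAS2 and the neuronal gene NEFL were under the filter on dim probe sets. The part of these markers in the chain gene differences was not tested.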

How the data were processed

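The authors deposited log2 signals, for which the submitters' processing notes name RMA and Affymetrix Expression Console 1.4. Total RNA was extracted with Trizol and labelled with biotin, per the labels' protocols. Build and annotation: not given in the sources used here. Symbols came from the platform annotation: 13878 of 27558 probe sets were unnamed and 357 had several symbols, of which 2 that matched the rule were left out. Probe sets in the lowest 25% by mean (under 3.00) were dropped and 20669 tested, all 66 members among them. A limma model (version 3.58.1, R 4.3.3) gave 1 mean per group over 12 arrays, two-sided, Benjamini-Hochberg adjusted over all tested, and called under 0.05. For pacing with regions averaged, same-numbered arrays were averaged first, which lets label numbers set the spread. The code was tested on simulated data. Figures used matplotlib 3.10.9.

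Of 8 members with several probe sets, 3 had pairs with identical values. All 66 matched the RefSeq gene table (Sscrofa11.1) by gene ID, and COX1 and COX2 were the only neighbours. Arrays of both regions with the same number had correlated deviations from their group means among controls (0.318, 0.252 and 0.245), while among paced pigs these were 0.089, -0.173 and -0.181, and between treatments -0.199 to 0.217. Numbers were therefore read as a possible pairing of regions in control pigs only. The main fits between regions used no pairing in either treatment. The averaging of regions and the replicate block joined same-numbered arrays in both treatments.

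Named members were, per comparison, every one called, the 4 with the smallest p in each direction and then the one with the smallest p in each complex not yet named. Tissue isoforms, ATP5B and the brightest and dimmest member of each complex were also named, and for other lists the gene with the smallest p in each direction. NDUFS1, NDUFAB1, NDUFC2 in the free wall, ATP5A1, COX1, COX2 and the members listed for lack of overlap outside this rule were chosen after their values were seen. The members and lists were chosen with earlier results of these data known. Alternatives were other filters, scalings, weights, variance moderation, probe set choices, a replicate block and leaving out each array. Leaving out arrays for genes of other lists was chosen after seeing the data.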

Additional observations from a re-analysis of the deposited data

How the results depend on the processing

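No member was called in any of 7 comparisons under any alternative that was run, so the count of 0 held throughout. The median member difference moved by less than the SD between arrays but took both signs over the alternatives in 6 of 7 comparisons. It ran from -0.048 to 0.01 for pacing in the free wall, -0.053 to 0.005 in the septum and -0.038 to -0.003 with regions averaged. It ran from -0.053 to 0.02 for the difference of effects, -0.031 to 0.049 between regions in control pigs, -0.067 to 0.015 in paced pigs and -0.041 to 0.02 over both. The smallest adjusted p for any member was 0.0722, for ATP5D between regions over both treatments with probe sets under a mean of 8 left out. At an unadjusted p under 0.05, members numbered 0 to 2 for pacing in the free wall, 0 to 4 in the septum, 0 to 4 with regions averaged and 0 to 2 for the difference of pacing effects. Between regions they numbered 0 to 3 in control pigs, 3 to 10 in paced pigs and 4 to 10 over both. Of 1692 alternatives for single named members 7 changed sign. SDHD with pacing, regions averaged, was 0.0308 with the mean of its probe sets and -0.0633 to 0.0333 when single arrays were left out. SDHD between regions in control pigs was -0.0317 with the mean of its probe sets, -0.0067 with arrays shifted to a common median and -0.0333 to 0.0717 when single arrays were left out. NDUFA8 with pacing in the septum was -0.01 to 0.21 when single arrays were left out. With the replicate number as a block, the median member difference between regions in control pigs was 0.020 with 0 members called and a smallest adjusted p of 0.988, and the block changed no call of a member. Over all probe sets it took the calls from 1 to 0 for pacing in the free wall and 2 to 1 in the septum. Between regions it took them from 0 to 1 in paced pigs and 2 to 1 over both. For pacing the block joined control and paced arrays of the same number, which come from different pigs, so there it follows no pairing in the design. Between regions in paced pigs, where it is not known that the numbers pair arrays, the block gave 4 members at an unadjusted p under 0.05 in place of 5. Genes matched through synonyms added only PTGS2, which shares an old name with COX2 and is no chain gene, so that alternative was not run. A fit of only the arrays compared was not separate for averaged regions, the difference of effects or both treatments. Promoter motifs were not analysed here. With 3 arrays per group the 95% interval had a median of 0.26 on either side within a region, so smaller differences were not resolved for most members.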
